A study of Mus musculus with 28 samples.

Results

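The proteasome genes described here are the 42 genes whose pathway annotation in the deposited table holds the entry Proteasome, after 4 of the 46 genes with that entry were dropped: Psmb8, Psmb9, Psmb10 and Ifng. The table lists 25301 genes in all. Macrophages had been sorted by flow cytometry out of pancreases of C57BL/6J animals of wild-type genotype, in a study that used caerulein. Caerulein is a peptide that overstimulates the gland's acinar cells, and its use models acute pancreatitis (AP) and the recovery that follows. RNA was sequenced in bulk from 28 libraries: 5 from day 0 (D0), 6 from day 1 with pancreatitis and lactate (D1 AP+Lac), 6 from day 1 with pancreatitis and PBS (D1 AP+PBS), 4 from day 3 with lactate (D3 AP+Lac), 4 from day 3 with PBS (D3 AP+PBS) and 3 labelled NC, a name whose meaning the labels do not give. The group names do not say whether the NC or the D0 animals received caerulein, and D0 carries no label of pancreatitis, PBS or lactate. All 6 groups share the strain and the wild-type genotype, and the labels give no age, sex, dose or sorting gate. They do not say whether libraries came from separate animals, so p-values measure only the spread between these libraries.

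The proteasome is the chamber in which cells cut up proteins that carry ubiquitin chains. Its 20S core is a barrel of outer alpha rings, which gate the entrance, and inner beta rings, in which Psmb5, Psmb6 and Psmb7 hold the cutting sites. The 19S cap has a base of ATPases (Psmc genes) that unfold the substrate and a lid that removes its ubiquitin, and other caps, PA28 (Psme1 with Psme2, or Psme3 alone) and PA200 (Psme4), open the core without ATP. Interferon-gamma is known to induce PA28 of the Psme1 and Psme2 kind together with Psmb8, Psmb9 and Psmb10, which replace Psmb5, Psmb6 and Psmb7 in the immunoproteasome, and macrophages use these forms to make peptides for antigen presentation. Nfe2l1 is the transcription factor best known for raising proteasome genes when the proteasome is inhibited.

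By role the members were 7 alpha ring genes, 7 beta ring genes, 6 base ATPases, 4 other base genes, 9 lid genes, 5 activator genes, the maturation factor Pomp, the base assembly chaperone Psmd9, the inhibitor Psmf1 and the tissue-specific alpha subunit Psma8. Psma8, which in mice replaces an alpha subunit in the testis, was listed at 0.111 to 0.693 FPKM (fragments per kilobase of gene, scaled to library size) and was the 1 member left out of the tests, for which 3 or more libraries had to reach an FPKM of 1. The other 41 members had at least 510 fragments in every library. FPKM are per length, so levels can be set side by side between genes. Averaged over the 28 libraries, Psme1 (248 FPKM), Sem1 (229 FPKM) and Psme2 (195 FPKM) were the highest members, and Psmd9 (7.54 FPKM), Psmf1 (8.05 FPKM) and Psme4 (14.2 FPKM) the lowest tested ones.

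The libraries held 33273304 to 41060493 fragments. Macrophage genes were high in every group (group means of log2(FPKM + 1) over 12 markers of 7.69 to 8.81), and no gene of the lists for acinar, B and plasma, T and NK, dendritic, neutrophil, and fibroblast cells was at 0 in all libraries of a group. The D1 AP+PBS library 5 stood apart from the other 5 of its group in PA28 and immunoproteasome genes. Counts of called members that rest on it are given with and without it, and the immunoproteasome values and ratios only with it. In bulk libraries, fewer cells of a type and less RNA per cell cannot be told apart.

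The sequences shown are the 250 bases before the transcription start of Psma6 and Psmc1, the members that differed most at day 0, of Psmb5, a cutting subunit, and of Psme1, the PA28 gene of the lactate comparison that has no near copy in the table's member list. They come from RefSeq on GRCm38.p6 and run from 5′ to 3′ on the gene's strand: Psma6 at chr12:55398575-55398824 on the plus strand, the downstream one of its listed starts, Psmc1 at chr12:100109952-100110201 on the plus strand, Psmb5 at chr14:54617996-54618245 on the minus strand and Psme1 at chr14:55578244-55578493 on the plus strand. Capitals mark matches, on either strand, to 4 motifs chosen after the data were seen: TGACNNNGC, the core of the antioxidant response element that Nfe2l1 and Nfe2l2 bind, CGGAAG, the core bound by ETS factors, the CCAAT box and an interferon-type element, GAAA and GAAA with any 2 bases between them. None of the printed matches overlap.
Psma6: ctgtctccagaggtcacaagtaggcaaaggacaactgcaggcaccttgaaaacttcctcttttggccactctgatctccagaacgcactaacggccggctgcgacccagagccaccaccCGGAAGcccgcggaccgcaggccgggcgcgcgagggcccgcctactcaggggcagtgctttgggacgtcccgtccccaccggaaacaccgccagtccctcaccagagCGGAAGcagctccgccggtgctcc
Psmc1: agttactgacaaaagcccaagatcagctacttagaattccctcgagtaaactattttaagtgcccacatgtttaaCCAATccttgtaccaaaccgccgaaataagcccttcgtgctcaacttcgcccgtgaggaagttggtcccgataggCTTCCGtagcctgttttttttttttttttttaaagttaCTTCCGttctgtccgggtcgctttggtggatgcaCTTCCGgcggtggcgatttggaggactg
Psmb5: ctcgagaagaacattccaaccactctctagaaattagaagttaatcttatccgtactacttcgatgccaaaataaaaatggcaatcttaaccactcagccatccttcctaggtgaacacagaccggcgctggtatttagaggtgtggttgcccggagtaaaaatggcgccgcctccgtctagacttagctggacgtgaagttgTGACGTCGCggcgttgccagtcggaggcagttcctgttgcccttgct
Psme1: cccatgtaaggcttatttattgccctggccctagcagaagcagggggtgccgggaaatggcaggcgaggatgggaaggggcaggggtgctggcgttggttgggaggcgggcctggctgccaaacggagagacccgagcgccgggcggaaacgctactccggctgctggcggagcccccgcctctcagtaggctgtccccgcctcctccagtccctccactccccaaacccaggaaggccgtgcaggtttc

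Psma6 held 2 ETS cores, Psmc1 held 3 ETS cores and a CCAAT box, Psmb5 held 1 antioxidant response core, and the Psme1 window held none of the 4 motifs. Of the 42 members, 35 had an entry in the promoter set used here, with 38 windows. That set held none for Psma8, Psmb1, Psmb2, Psmb7, Psmc3, Psmd3 and Psmd7. CGGAAG stood in 20 of the 38 windows (52.6%), against 13.6% of all 32851 windows. The member windows were richer in G and C (median 57.4%) than all windows (median 52.4%), and among the 10898 windows in the members' middle range of G and C, 18.8% held CGGAAG. TGACNNNGC stood in 6 member windows (15.8%), those of Adrm1, Psmb5, Psmb6, Psmc6, Psmd12 and Psmd9. It stood in 10.2% of all windows and in 12.3% of those in the middle range. CCAAT stood in 31.6% of member windows, 33.8% of all windows and 34.7% of those in the middle range. The interferon-type element stood in 3 member windows (7.89%), against 2.98% of all windows and 2.14% of those in the middle range. These matches are letters in a window and were not tested as binding sites.

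At day 0 the genes of the 26S proteasome were higher than in NC, while Psme1, Psme2 and Psme2b of the PA28 cap did not pass the test. All 33 tested 20S and 19S subunits were called higher at D0, at log2 fold changes between 0.40 and 1.17, and so were Pomp, Psmd9 and Psme3. With quantile normalization Psma4, Psma7, Psmb1, Psmc3 and Pomp did not pass, and Psme4 and Psmf1 were called higher. With median-ratio scaling Psme1 and Psme4 were called higher as well, so the result for Psme1 depended on the scaling. Psme2 and Psme2b passed with neither scaling. In all, 36 of the 41 tested members were higher and 0 lower by limma at an adjusted p under 0.05, against a background of 19.7% of all 11960 tested genes called higher and 41.4% called lower. The median log2 fold change was 0.70 over the members and -0.22 over all tested genes. The 42 members made up 1.12 ± 0.041% of the summed FPKM in D0 libraries (SD, n = 5) and 0.682 ± 0.057% in NC libraries (SD, n = 3).

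**Figure D1:**
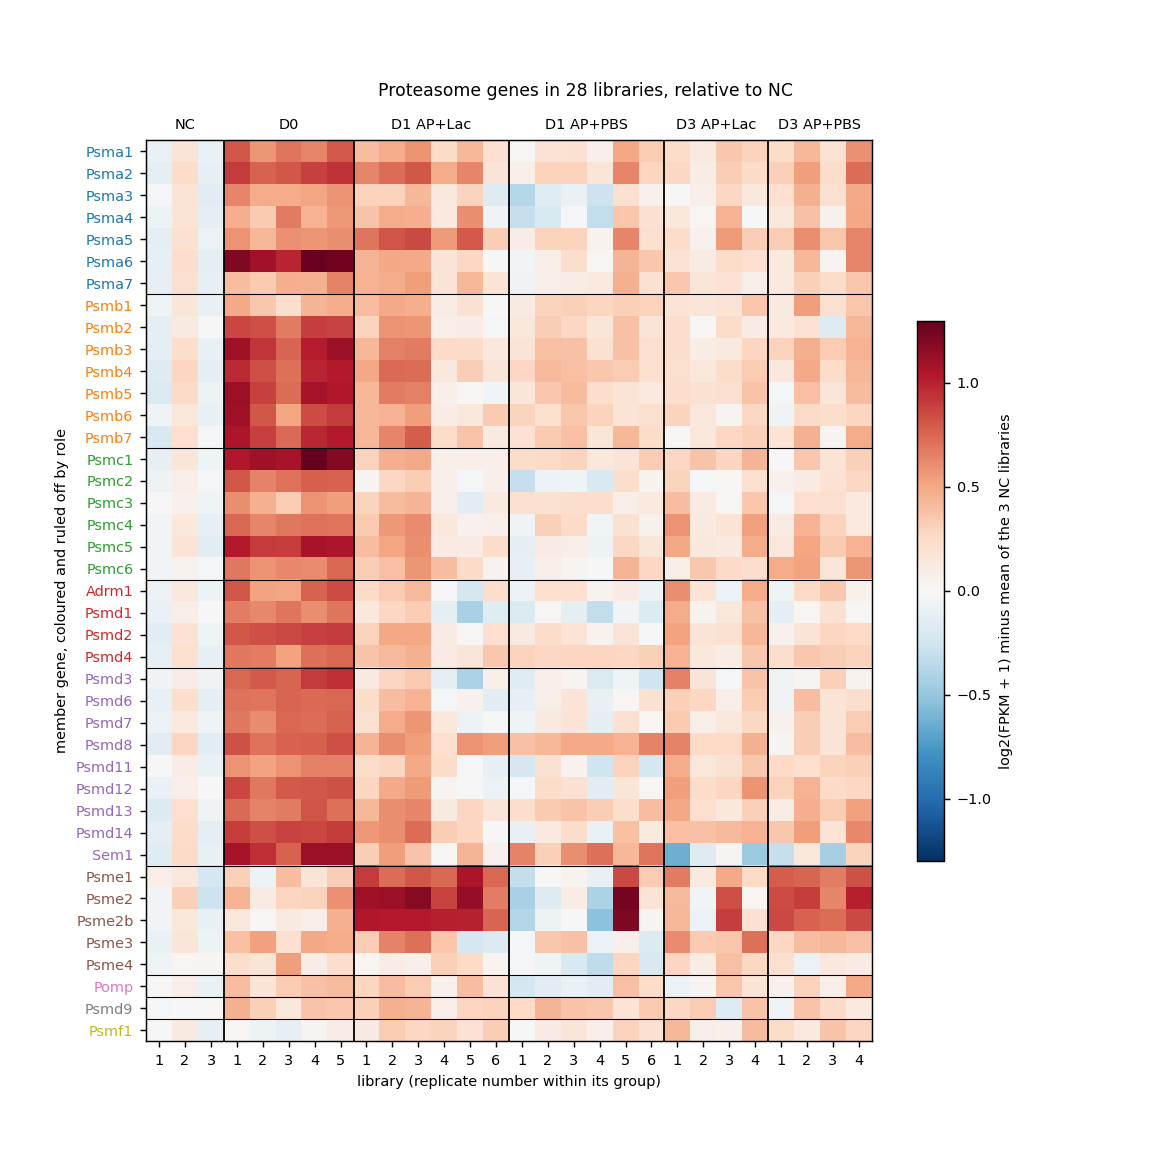
Each row is 1 of the 41 tested members, ruled off by role, and each column 1 of the 28 libraries, with colour giving log2(FPKM + 1) minus the mean of the 3 NC libraries. The D0 columns are red for the core, base and lid genes. The Psme1, Psme2 and Psme2b rows are red in D1 AP+Lac, in D3 AP+PBS and in D1 AP+PBS library 5. In each of these genes D3 AP+Lac libraries 1 and 3 and D0 libraries 1 and 5 also lie above all NC libraries.

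Psma6, an alpha ring subunit, had 217, 201, 188, 229 and 226 FPKM in D0 libraries, against 87.3, 110.1 and 85.8 FPKM in NC libraries. Every D0 library was above every NC library, and the log2 fold change of 1.17 ± 0.14 (SE) had an adjusted p of 1.07e-07 by limma. Psmc1, an ATPase of the base, had 152, 158, 154, 182 and 168 FPKM in D0 libraries, against 67.8, 81.4 and 70.4 FPKM in NC libraries. The groups were again apart, with a log2 fold change of 1.14 ± 0.11 (SE) and an adjusted p of 2.41e-09 by limma. Sem1, a small acidic lid subunit, had 368, 338, 299, 380.2 and 380.4 FPKM in D0 libraries, against 157, 208 and 164 FPKM in NC libraries, a log2 fold change of 1.00 ± 0.17 (SE).

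The subunits that cut proteins were higher by similar amounts. Psmb5, the chymotrypsin-like site, had 150.1, 128, 115, 147 and 143 FPKM in D0 libraries, against 60.5, 82.0 and 66.0 FPKM in NC libraries. Psmb6, the caspase-like site, had 147, 120.0, 97.8, 123 and 129 FPKM in D0 libraries, against 65.9, 75.3 and 63.6 FPKM in NC libraries. Psmb7, the trypsin-like site, had 179, 159, 143, 169.9 and 176 FPKM in D0 libraries, against 74.8, 99.95 and 84.2 FPKM in NC libraries. For none of the 3 did the groups overlap, and the log2 fold changes were 0.97 ± 0.15 (SE) for Psmb5, 0.84 ± 0.12 (SE) for Psmb6 and 0.94 ± 0.13 (SE) for Psmb7.

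Within the rings and the cap the size of the difference varied. The 7 alpha ring genes ranged between 0.47 (Psma7) and 1.17 (Psma6), with a median of 0.56, and the 7 beta ring genes between 0.40 (Psmb1) and 0.99 (Psmb3), with a median of 0.91. The 6 ATPases had a median of 0.72, with Psmc3 lowest at 0.50. Among the 4 other base genes, the ubiquitin receptors Psmd4 and Adrm1 were higher by 0.67 and 0.69 and the scaffold subunits Psmd1 and Psmd2 by 0.66 and 0.86. The 9 lid genes lay between 0.60 (Psmd11) and 1.00 (Sem1), and Psmd14, the lid enzyme that cuts ubiquitin chains off, was higher by 0.88. These gene by gene differences are descriptions and were not tested against each other.

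Psme1, an alpha subunit of PA28, had 224, 172, 238, 203 and 224 FPKM in D0 libraries, against 190.5, 199 and 153 FPKM in NC libraries. Psme2, its beta partner, had 182, 143, 161, 164 and 201 FPKM in D0 libraries, against 129, 164 and 109.8 FPKM in NC libraries. Both pairs of groups overlapped, and the log2 fold changes of 0.23 ± 0.18 (SE) and 0.35 ± 0.26 (SE) had adjusted p-values of 0.272 and 0.248 by limma. Psme2b is a near copy of Psme2, the counting of fragments that the copies share is not stated, and the values of each are uncertain, here 0.16 ± 0.24 (SE) for Psme2b. Psme4 had 13.99 to 19.5 FPKM in D0 libraries and 12.5 to 13.4 FPKM in NC libraries, apart but with an adjusted p of 0.0534 by limma. Psmf1, which binds and inhibits the core in vitro, had 7.25, 6.73, 6.51, 7.27 and 7.68 FPKM in D0 libraries, against 7.05, 7.75 and 6.52 FPKM in NC libraries, with a log2 fold change of -0.00 ± 0.09 (SE).

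Counted library by library, 37 of the 41 tested members had every D0 library above every NC library, against 21.7% of all tested genes, and 0 had every D0 library below every NC library, against 46.6%. The exceptions were Psme1, Psme2, Psme2b and Psmf1.

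**Figure D2:**
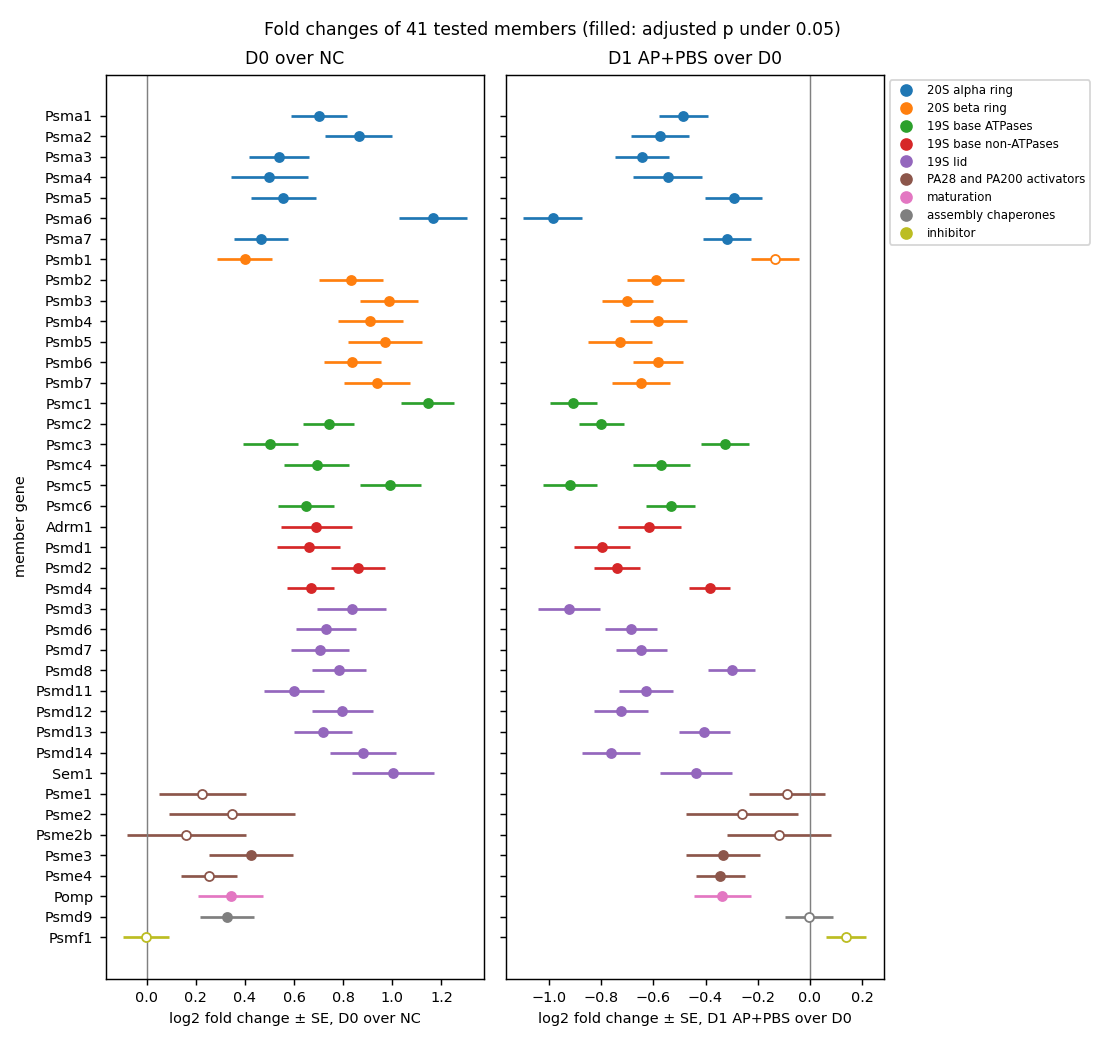
Points give the log2 fold change of each tested member with its SE, for D0 over NC on the left and D1 AP+PBS over D0 on the right, coloured by role and filled where the adjusted p was under 0.05. The right panel is close to a mirror image of the left for core, base and lid genes, and both panels use the same D0 libraries.

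Genes around the proteasome were listed apart from the members. Of 6 tested assembly chaperones 4 were higher at D0: Psmg1 (0.56), Psmg3 (0.48) and Psmg4 (0.60), which help build the alpha ring, and Psmd10 (0.52), which helps build the base. In a list of 5 tested genes headed proteasome gene regulation, not all of them transcription regulators, Ngly1, whose enzyme processes Nfe2l1, was lower (-0.58), and 0 were higher.

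Nfe2l1 had 30.4, 32.7, 27.8, 32.3 and 35.2 FPKM in D0 libraries, against 37.0, 36.9 and 37.6 FPKM in NC libraries. All D0 values were below all NC values, but the log2 fold change of -0.23 ± 0.11 (SE) had an adjusted p of 0.069 by limma. Nfe2l2, a related factor of the antioxidant response, had means of 51.4 ± 1.04 FPKM in D0 libraries (SD, n = 5) and 47.0 ± 4.53 FPKM in NC libraries (SD, n = 3), with an adjusted p of 0.47 by limma.

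The immunoproteasome subunits were set beside the subunits they replace. Psmb10 was higher at D0, at 136 ± 10.6 FPKM in D0 libraries (SD, n = 5) and 78.9 ± 13.0 FPKM in NC libraries (SD, n = 3), while Psmb8 and Psmb9 had log2 fold changes of 0.25 ± 0.15 (SE) and -0.09 ± 0.19 (SE) that did not pass. The ratio of Psmb8 to Psmb5 was 1.85 to 2.34 in D0 libraries and 3.08 to 3.66 in NC libraries, and the ratio of Psmb9 to Psmb6 was 0.49 to 0.842 in D0 libraries and 1.06 to 1.23 in NC libraries. Neither ratio overlapped between the groups. Their two-sided exact permutation p of 0.0357 is the smallest that 5 libraries against 3 allow, and adjusted over 9 ratio tests it was 0.0804. The ratio of Psmb10 to Psmb7 overlapped, at 0.732 to 1.04 in D0 libraries and 0.791 to 1.04 in NC libraries.

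Other cell types' markers moved in the same comparison. The mean log2(FPKM + 1) of 19 acinar markers was 3.76 to 4.60 in D0 libraries and 7.67 to 8.27 in NC libraries, with 18 of 19 called lower by limma, and dendritic cell markers were lower in 10 of 10. T and NK cell markers were lower in 12 of 13, cell cycle genes in 20 of 21 and fibroblast markers in 2 of 8. B and plasma cell markers were lower in 10 and higher in 1 of 11, and neutrophil markers higher in 6 and lower in 1 of 10. Macrophage markers were higher in 3 and lower in 3 of 12, at log2 fold changes between -1.29 and 2.99. The summed FPKM of the acinar markers was 481 to 925 in D0 libraries and 7288 to 11624 in NC libraries. With the acinar markers taken out and the rest rescaled, 35 of the 41 members were called higher, against a background of 18.2% higher and 42.6% lower. That step removes only the listed genes and leaves other RNA of acinar cells in the values. The part of the other cell types in the result was not tested.

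On day 1 under PBS most core, base and lid genes were lower than at day 0. In D1 AP+PBS against D0, 0 members were higher and 35 of 41 lower by limma, against a background of 43% of tested genes called higher and 19.8% lower. At an unadjusted p under 0.05 the member count of higher genes was also 0. The median log2 fold change was -0.57 over the members and 0.19 over all tested genes. All alpha ring, base and lid genes were lower, as were 6 of 7 beta ring genes, Pomp, Psme3 and Psme4. With quantile normalization 31 members were lower, without Psma5, Psma7, Psmc3, Psmd8 and Pomp and with Psmd9 added. The D0 libraries are shared with the comparison against NC, so the members' values in the 2 comparisons are not independent.

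Psma6 had a lowest value of 91.6, a median of 104 and a highest value of 127 FPKM in D1 AP+PBS libraries, against 217, 201, 188, 229 and 226 FPKM in D0 libraries. The log2 fold change was -0.99 ± 0.11 (SE). Psmd3, a lid subunit, had a lowest value of 35.5, a median of 39.6 and a highest value of 45.3 FPKM in D1 AP+PBS libraries, against 72.3, 74.9, 72.9, 80.9 and 83.1 FPKM in D0 libraries. Psmc5, a base ATPase, had a lowest value of 53.1, a median of 61.7 and a highest value of 69.8 FPKM in D1 AP+PBS libraries, against 119, 109.4, 108, 122 and 120.1 FPKM in D0 libraries. Both had log2 fold changes of -0.92, with adjusted p-values of 4.36e-07 for Psmd3 and 6.56e-08 for Psmc5 by limma.

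In none of these 3 genes did the groups overlap, and 29 of 41 members had every D1 AP+PBS library below every D0 library, against 12.5% of all tested genes, and 0 had the reverse, against 31.7%. The members not called were Psmb1 (-0.13), Psme1 (-0.09), Psme2 (-0.26), Psme2b (-0.12), Psmd9 (-0.00) and Psmf1 (0.14). Without D1 AP+PBS library 5, Psme2 (-0.49) and Psme2b (-0.35) were called lower and Psme3 was not, 36 members in all, against a background of 43% higher and 20.1% lower. Psme3 also lost its call without any 1 of D0 libraries 1, 2, 4 and 5 or D1 AP+PBS libraries 1, 4 and 6, and Psma5 without D1 AP+PBS library 1 or 4. With no filter and with the replicate block Psme3 was not called either. Acinar markers were called higher in 17 of 19, with summed FPKM of 1166 to 6194 in D1 AP+PBS libraries and 481 to 925 in D0 libraries, and cell cycle genes in 21 of 21. T and NK cell markers were higher in 13 of 13, dendritic cell markers in 10 of 10 and fibroblast markers in 8 of 8. B and plasma cell markers were higher in 9 and lower in 1 of 11, and neutrophil markers were lower in 7 of 10. Macrophage markers were higher in 5 and lower in 4 of 12. Their part in the result was not tested.

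On day 3 under PBS, Psme1, Psme2 and Psme2b were higher than on day 1, and most core genes did not pass the test. In D3 AP+PBS against D1 AP+PBS, 7 of 41 members (17.1%) were higher and 1 (2.44%) lower by limma. The background was 21.5% higher and 12.8% lower, so the members' share was near it for higher and below it for lower. The 7 were Psme2 (0.76), Psme2b (0.76), Psme1 (0.62), Psma3 (0.45), Psmc6 (0.32), Psmc5 (0.29) and Psmd11 (0.29). Psme2 had 240.1, 249, 206 and 268 FPKM in D3 AP+PBS libraries, against a lowest value of 98.5, a median of 130.1 and a highest value of 316 FPKM in D1 AP+PBS libraries. The highest D1 AP+PBS value was that of library 5, above all D3 AP+PBS values, and the other 5 were 151 FPKM or lower.

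Sem1 was the 1 member called lower, with 143, 194, 129.5 and 215 FPKM in D3 AP+PBS libraries, against a lowest value of 217, a median of 269.7 and a highest value of 288 FPKM in D1 AP+PBS libraries. Sem1 had every D3 AP+PBS library below every D1 AP+PBS library, against a background of 7.27%, and Psmd12 alone had the reverse, against 8.31%. The log2 fold change of Sem1 was -0.64 ± 0.15 (SE), with an adjusted p of 0.00241 by limma. The cutting subunits had log2 fold changes of -0.01 for Psmb5, -0.08 for Psmb6 and -0.00 for Psmb7, with adjusted p-values of 0.583 or higher by limma. When only these 2 groups entered the fit, Psme1 and Psma3 were the members called higher, against a background of 14.2% higher, and Psme2 and Psme2b did not pass. Without D1 AP+PBS library 5, 13 members were called higher, against a background of 24% higher and 14.9% lower. Without D1 AP+PBS library 1, D3 AP+PBS library 2 or D3 AP+PBS library 4 the count was 4 in each case, against backgrounds of 15.9%, 15.8% and 22.4% higher. T and NK cell markers were called higher in 12 of 13, dendritic cell markers in 10 of 10 and acinar markers in 12 of 19, and macrophage markers lower in 11 of 12. Their part in the result was not tested.

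On day 3 under PBS, Psme1, Psme2 and Psme2b were the called members furthest above NC. In D3 AP+PBS against NC, 12 members were higher and 0 lower by limma, against a background of 10.3% higher and 10.9% lower. The 3 largest differences were in Psme2 (0.85 ± 0.27, SE), Psme2b (0.80 ± 0.25, SE) and Psme1 (0.76 ± 0.18, SE), and the other 9 lay between 0.30 and 0.48. Psme1 had 311, 306, 285 and 319.9 FPKM in D3 AP+PBS libraries, against 190.5, 199 and 153 FPKM in NC libraries, so the groups were apart. In all, 13 members had every D3 AP+PBS library above every NC library, against a background of 22%, and 0 the reverse, against 14.7%. Psmb8 (0.60), Psmb9 (0.83) and Psmb10 (0.63) were also higher. The counts rested on single libraries, and the share of all genes called higher moved as well. Without NC library 3 only Psme1 was called (background 3.29% higher), and without NC library 1 Psmc6 and Psme1 (5.65%). Without D3 AP+PBS library 2 or 4 the counts were 5 and 4 (6.86% and 10%). With median-ratio scaling Psme1 alone passed (6.76%). T and NK cell markers were higher in 11 of 13, fibroblast markers in 4 of 8 and dendritic cell markers in 5 of 10, with 2 lower, and macrophage markers were lower in 10 of 12. Their part in the result was not tested.

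**Figure D3:**
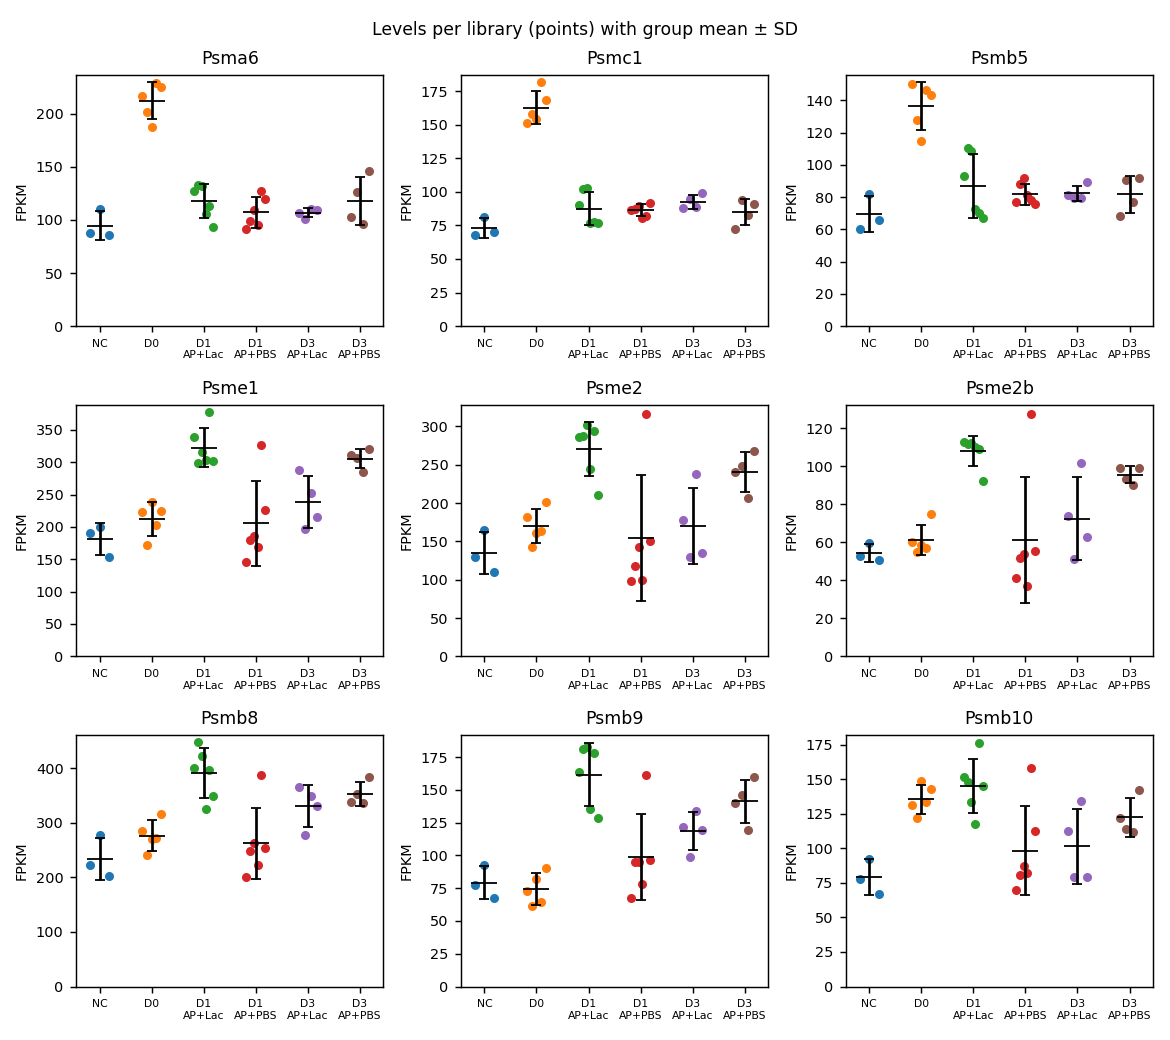
Points are FPKM of single libraries, by group from NC to day 3, with lactate left of PBS on each day, and bars give the group mean ± SD. Psma6, Psmc1 and Psmb5 are highest in D0, and Psme1, Psme2, Psme2b, Psmb8 and Psmb9 are high in D1 AP+Lac and D3 AP+PBS with 1 D1 AP+PBS library, number 5, far above the others of its group. Psmb8 and Psmb9 average 330 and 118 FPKM in D3 AP+Lac, 352 and 141 FPKM in D3 AP+PBS and 234 and 79.2 FPKM in NC.

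Lactate is a product of glycolysis, and the study's title is about its effect on macrophages in pancreatic repair. On day 1 Psme1, Psme2 and Psme2b had the largest differences between lactate and PBS among the members. In D1 AP+Lac against D1 AP+PBS, 5 of 41 members were higher and 0 lower by limma, against a background of 5.16% higher and 4.56% lower: Psme2b, Psme2, Psme1, Psma5 and Psma3. The median log2 fold change was 0.14 over the members and 0.02 over all tested genes. The D1 AP+PBS libraries are shared with the comparisons with D0 and with D3 AP+PBS, so the members' values in these comparisons are not independent.

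Psme1 had a lowest value of 298, a median of 309 and a highest value of 377 FPKM in D1 AP+Lac libraries, against 145, 183 and 327 FPKM in D1 AP+PBS libraries. Psme2 had 211, 287 and 302 FPKM in D1 AP+Lac libraries, against 98.5, 130.1 and 316 FPKM in D1 AP+PBS libraries. Psme2b had 92.1, 110.9 and 113 FPKM in D1 AP+Lac libraries, against 37.1, 52.8 and 127 FPKM in D1 AP+PBS libraries. In all 3 genes the groups overlapped only through D1 AP+PBS library 5, and the other 5 PBS libraries lay below all lactate libraries. Library 5 was singled out by its values in these same genes, and the share of all genes that are apart without it was not counted. Psme2 and Psme2b, as near copies, are not separate observations. No member had all libraries of one group above all of the other, against backgrounds of 0.134% higher and 0.276% lower.

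The log2 fold changes were 0.69 ± 0.14 (SE) for Psme1, 0.92 ± 0.20 (SE) for Psme2 and 0.94 ± 0.19 (SE) for Psme2b, with adjusted p-values of 0.00917, 0.0113 and 0.00951 by limma. Psma3 and Psma5, alpha ring subunits, were higher by 0.32 ± 0.10 (SE) and 0.41 ± 0.11 (SE). Of the cutting subunits, Psmb5 averaged 87.1 ± 19.8 FPKM in D1 AP+Lac libraries and 81.9 ± 6.49 FPKM in D1 AP+PBS libraries (SD, n = 6 each), with a log2 fold change of 0.06 ± 0.12 (SE) that did not pass. All 7 beta ring genes lay between 0.01 and 0.14 and 0 passed, at adjusted p-values of 0.446 or higher for Psmb5, Psmb6 and Psmb7 by limma.

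The immunoproteasome subunits differed with the cap. Psmb8 averaged 390 ± 45.5 FPKM in D1 AP+Lac libraries and 262 ± 65.4 FPKM in D1 AP+PBS libraries (SD, n = 6 each), a log2 fold change of 0.60 ± 0.12 (SE). Psmb9 was higher by 0.74 ± 0.15 (SE) and Psmb10 by 0.60 ± 0.16 (SE). The ratio of Psmb8 to Psmb5 was 3.88 to 5.64 in D1 AP+Lac libraries and 2.60 to 4.95 in D1 AP+PBS libraries, and the ratio of Psmb9 to Psmb6 was 1.48 to 2.37 in D1 AP+Lac libraries and 0.810 to 2.08 in D1 AP+PBS libraries. Both had a two-sided exact permutation p of 0.0130, which became 0.0584 when adjusted over the 9 ratio tests. The ratio of Psmb10 to Psmb7 had an exact permutation p of 0.0498, adjusted to 0.0896. These day 1 ratio tests include D1 AP+PBS library 5 and were not repeated without it. On day 3 the log2 differences of the ratios between lactate and PBS were -0.12, -0.26 and -0.20 for Psmb8, Psmb9 and Psmb10 over the subunits they replace, with adjusted exact permutation p-values of 0.402, 0.214 and 0.429.

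These calls depended on how the spread was estimated and on single libraries. When only the D1 libraries entered the fit, limma called 0 of the 11960 genes, and Psme1, Psme2 and Psme2b had an adjusted p of 0.116, while 11 members were higher at an unadjusted p under 0.05. With the replicate number as a block in that fit, 154 genes and 0 members were called, 10 members were higher at an unadjusted p under 0.05, and the adjusted p was 0.0501 for Psme1, 0.068 for Psme2 and 0.072 for Psme2b. The share of all genes at that unadjusted threshold was not counted in these D1 fits. In the fit of all 28 libraries, 3029 of the 11960 genes reached it in either direction, with 15 members higher and 0 lower. Without D1 AP+PBS library 5, 15 members were called higher, against a background of 10.3% higher and 9.65% lower, and the log2 fold change of Psme2 was 1.16. Without D1 AP+Lac library 6 the count was 10, against a background of 9.47% higher. Without D1 AP+PBS library 1 or 4 it was 3 in each case, against backgrounds of 1.04% and 1.1% higher. T and NK cell markers were called higher in 5 of 13 and dendritic cell markers in 5 of 10, with summed FPKM of 269 to 819 for T and NK markers in D1 AP+Lac libraries and 158 to 479.5 in D1 AP+PBS libraries. Macrophage markers were lower in 4 of 12. Their part in the result was not tested.

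**Figure D4:**
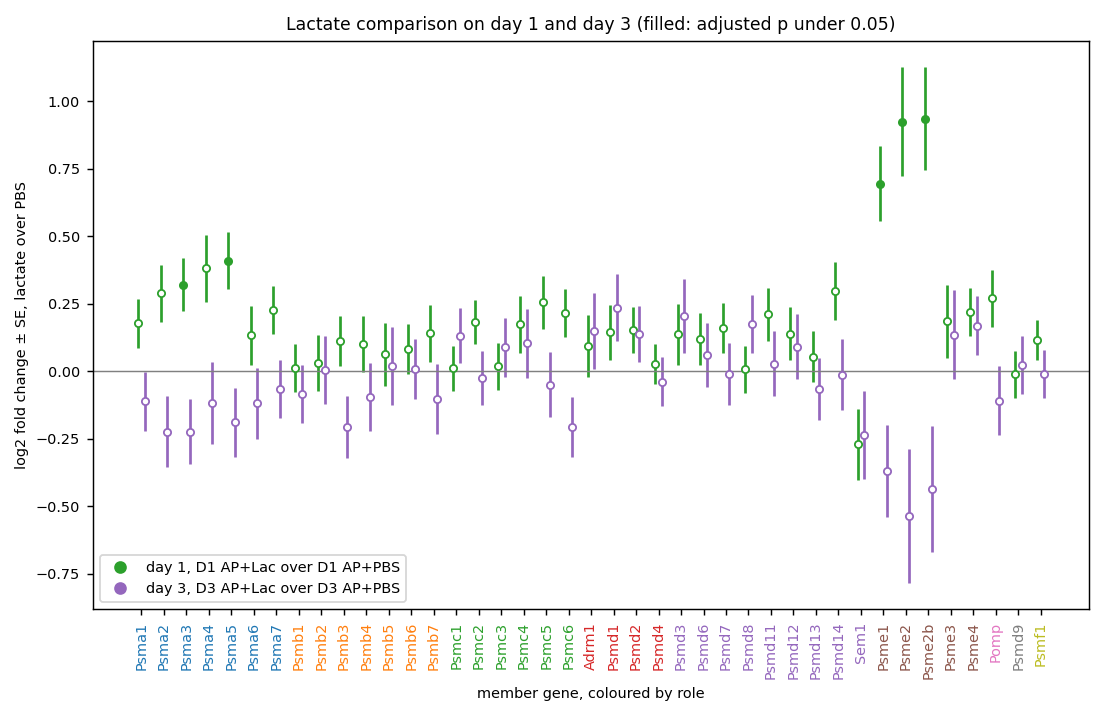
For each tested member, the log2 fold change of lactate over PBS is shown with its SE on day 1 and on day 3, filled where the adjusted p was under 0.05. Psme1, Psme2 and Psme2b lie at 0.69 to 0.94 on day 1 and below 0 on day 3, and no member is filled on day 3.

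On day 3 limma called 0 of the 41 members in either direction between D3 AP+Lac and D3 AP+PBS, against a background of 0.192% higher and 0.184% lower. At an unadjusted p under 0.05, 0 members were higher and 2 lower, and the fit of the D3 libraries alone and voom on the recovered fragments called 0 members each. Psme1 had 288, 196, 253 and 216 FPKM in D3 AP+Lac libraries, against 311, 306, 285 and 319.9 FPKM in D3 AP+PBS libraries. Psme2 had 178, 129.3, 237 and 135 FPKM in D3 AP+Lac libraries, against 240.1, 249, 206 and 268 FPKM in D3 AP+PBS libraries. Lactate libraries 2 and 4 were below all PBS libraries in both genes, and the groups overlapped. Psmb3 alone had all lactate libraries below all PBS libraries, against a background of 4.33%, and 0 members had the reverse, against 3.34%. The log2 fold changes were -0.37 ± 0.17 (SE) for Psme1 and -0.54 ± 0.25 (SE) for Psme2, with adjusted p-values of 0.255 and 0.258 by limma.

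The change of the lactate difference between the days was tested as an interaction, day 3 minus day 1. By limma 0 members were higher and 5 lower, against a background of 4.76% higher and 5.94% lower. The 5 were the members called on day 1. The day 1 difference enters this test with its sign reversed, from the same libraries, so the lists are not independent. The differences were -1.46 ± 0.32 (SE) for Psme2, -1.37 ± 0.30 (SE) for Psme2b and -1.07 ± 0.22 (SE) for Psme1, with adjusted p-values of 0.00824, 0.00824 and 0.00699. Psma5 (-0.60) and Psma3 (-0.54) followed, and Psmb9 (-0.99), Psmb10 (-0.90) and Psmb8 (-0.70) were lower as well. The cutting subunits gave -0.04 for Psmb5, -0.07 for Psmb6 and -0.24 for Psmb7 and did not pass. When only the D1 and D3 libraries entered the fit, Psme1, Psme2 and Psme2b were called and Psma3 and Psma5 were not. Without D1 AP+PBS library 5 the count was 9 lower, against a background of 9.31% higher and 9.61% lower. Without D1 AP+Lac library 6 it was 8, against 9.44% lower. Without D3 AP+Lac library 2, D3 AP+PBS library 2 or D3 AP+PBS library 4 it was 3 in each case, against 3.32%, 4.59% and 5.36% lower. T and NK cell markers were lower in 6 of 13 and dendritic cell markers in 5 of 10, and macrophage markers were higher in 5 of 12 and B and plasma cell markers in 2 of 11. Their part in the result was not tested.

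Set out by group, the cutting subunits stood highest at D0. Psmb5 averaged 69.5 ± 11.2 FPKM in NC, 137 ± 14.8 in D0, 87.1 ± 19.8 in D1 AP+Lac, 81.9 ± 6.49 in D1 AP+PBS, 82.4 ± 4.81 in D3 AP+Lac and 81.9 ± 11.5 in D3 AP+PBS libraries (SD, n = 3 to 6). Psmb6 averaged 68.3 FPKM in NC, 123 in D0 and between 77.5 and 86.9 FPKM in the day 1 and day 3 groups, and Psmb7 averaged 86.3 FPKM in NC, 166 in D0 and between 97.9 and 117 FPKM in those groups. Among the day 1 and day 3 means of each gene, neighbours in the order differed by less than the larger SD of the pair.

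The remaining regulators were more even. Pomp, which helps the new core mature, averaged 194 ± 12.3 FPKM in D0 libraries (SD, n = 5) and 153 ± 9.07 FPKM in NC libraries (SD, n = 3), a log2 fold change of 0.34 ± 0.13 (SE), with the day 1 and day 3 groups between 156 and 186 FPKM. Psme3, the nuclear PA28, averaged 24.7 FPKM in NC, 33.5 in D0, 31.1 in D1 AP+Lac, 26.6 in D1 AP+PBS, 35.7 in D3 AP+Lac and 32.3 in D3 AP+PBS libraries, and its D1 AP+Lac libraries ran from 21.1 to 41.3 FPKM, across the range of the other groups' means. The calls of Pomp and Psme3 at D0 were each lost without D0 library 5, NC library 1 or NC library 3, and that of Psme3 also without D0 library 2 or 4. Psme4 group means lay between 12.3 FPKM in D1 AP+PBS and 15.8 FPKM in D0 libraries, and Psmf1 group means between 7.09 FPKM in D0 and 8.67 FPKM in D3 AP+PBS libraries.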

How the data were processed

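Bulk RNA-seq of sorted pancreatic macrophages was analysed in 28 libraries, grouped by their titles. The authors deposited 1 table of FPKM per gene and library, the unit being given in the file's name. Per the submitters' processing notes, fastp and R 3.2.0 were used. Aligner, counter and build: not given in the sources used here. FPKM are relative to all mapped fragments, so RNA of other cell types shifts them. Whole fragments could be recovered (99.99% of 518738 values whole within 0.0001), giving 33273304 to 41060493 per library. Among 55 within-group library pairs, fragment counts differed by a chi-square of at least 28.5 times the degrees of freedom, far above sampling noise.

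Tests used limma 3.58.1 in R 4.3.3 on log2(FPKM + 1), which understates changes of low genes, with a mean for each of 6 groups, all 28 libraries sharing the spread, and trended, robust variances. The 11960 genes reaching FPKM 1 in 3 or more libraries were tested, and two-sided p-values were adjusted by Benjamini-Hochberg over all of them, with a threshold of 0.05. The script was tested on simulated data. Members, lists and rules were chosen with earlier results of these data known. Named by rule were up to 3 called members with the largest differences in each direction of a comparison, the cutting subunits, caps, Psmf1 and Pomp, and, outside the members, Psmb8, Psmb9, Psmb10, Nfe2l1 and Nfe2l2. Other genes were named after their values were seen. Some genes of the related lists are not reported here. Ratios were tested by exact permutation (scipy) over 9 tests. Alternatives were quantile and median-ratio scaling, acinar markers taken out, pseudocount 0.1, other filters, only the compared groups, a replicate block, leaving out each library, and, added after the data were seen, voom on the recovered fragments and a replicate block in the D1 libraries alone.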

Additional observations from a re-analysis of the deposited data

Results flagged for a closer look

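Among 17 named members tested in 5 groups of 4 to 6 libraries (85 sets of values), 7 single values lay far from the rest of their group, where chance alone gives about 1 in 20. Over all 42 members it was 12 of 210 sets. D1 AP+PBS library 5 gave 2 of them, Psme2 at 316 FPKM and Psme2b at 127 FPKM. The others were Psma5 at 83.6 FPKM in D0 library 2, Psmb6 at 65.8 FPKM in D3 AP+PBS library 1, Psme2b at 75.05 FPKM in D0 library 5, Psme2b at 92.1 FPKM in D1 AP+Lac library 6 and Psme4 at 19.5 FPKM in D0 library 3. In D1 AP+PBS library 5 the T and NK cell markers averaged 4.79 on the log2 scale, the highest of its group, and the dendritic cell markers 3.07, within the group's range of 2.89 to 3.50. Fibroblast markers (1.72) and cell cycle genes (3.32) were the lowest of its group, and acinar (5.15) and B and plasma cell markers (4.68) were above library 6 only. Their part in its values was not tested.

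The lactate difference changed between the days, by the interaction test day 3 minus day 1, in Psme2 (-1.46), Psme2b (-1.37), Psme1 (-1.07), Psma5 (-0.60) and Psma3 (-0.54).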

How the results depend on the processing

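Over the alternatives run, the count of members higher at D0 against NC was 33 to 38 of 41 or 42, and leaving out 1 library gave 34 to 36 and, for members lower in D1 AP+PBS against D0, 33 to 36. Scaling shifted the median of all genes for D0 against NC by 0.27 (quantile) and 0.20 (median-ratio), turning the split of 2361 higher and 4948 lower into 3558 and 2755 or 3597 and 3858, and for D1 AP+PBS against D0 by -0.22 and -0.19, from 5147 and 2374 to 2835 and 3666 or 3918 and 3808. For D3 AP+PBS against D1 AP+PBS the split of 2569 and 1534 became 1771 and 2185 or 1862 and 2020, for D3 AP+PBS against NC 1236 and 1299 became 809 and 1593 with median-ratio scaling, and for day 3 lactate 23 and 22 became 130 and 83 or 47 and 30. In D0 against NC, quantile normalization turned Psme1 to -0.071, Psme2b to -0.029 and Psmf1 to 0.28, and median-ratio scaling turned Psmf1 to 0.20. At D0 Pomp lost its call with quantile normalization (adjusted p 0.69 by limma), as did Psma4, Psma7, Psmb1 and Psmc3, and with the replicate block, and Psme3 with acinar markers taken out and with no filter. Without 1 library Psmf1 ranged between -0.056 and 0.054, and Psmb5 on day 1 between -0.012 and 0.13. Members higher in D3 AP+PBS against D1 AP+PBS were 11 with quantile normalization, 4 with median-ratio scaling, 12 without acinar markers, 2 in the fit of those groups alone and 4 to 13 without 1 library. Those lower were 2, 3, 2 (FPKM of at least 5) and 2 (voom), and 1 to 2 without 1 library. For D3 AP+PBS against NC the count was 1 with median-ratio scaling and 1 to 16 without 1 library. On day 1, members higher with lactate were 9 without acinar markers, 0 in the fit of the D1 libraries alone, 0 in that fit with the replicate block (added after the data were seen) and 3 to 15 without 1 library, and in the interaction members lower were 3 in the fit of those groups alone and 3 to 9 without 1 library. Without 1 library the share of all genes called moved too. Genes higher were 14.9% to 24% for D3 AP+PBS against D1 AP+PBS and 3.29% to 10% for D3 AP+PBS against NC. For day 1 lactate 1.04% to 10.3% were higher, and in the interaction 3.32% to 9.61% were lower. The cause of these changes was not tested.

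The replicate numbers did not meet the criterion for pairing, a correlation above 0.1 in every pair: 20 of 59 pairs with the same number did, with a range of -0.57 to 0.61. Between the D1 groups 4 of 6 pairs did (range -0.34 to 0.61), and libraries 5 and 6 of both D1 groups had the lowest fibroblast markers (mean log2 of 1.81 and 2.00 with lactate, 1.72 and 2.00 with PBS) and B and plasma cell markers (4.19 and 4.03 with lactate, 4.68 and 4.14 with PBS). With the replicate block the counts were 35 (D0 against NC), 34 (D1 AP+PBS against D0), 5 higher and 1 lower (D3 against D1), 10 (D3 AP+PBS against NC), 6 (day 1 lactate), 0 (day 3 lactate) and 6 (interaction). Depth did not limit the 41 members, each with at least 510 fragments per library, and Psma8 had 9 to 58.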
